A study of Drosophila melanogaster with 4 samples.

Results

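The somatic piRNA biogenesis factors are a set of 10 genes: fs(1)Yb, armi, vret, shu, SoYb, BoYb, zuc, Gasz, mino and Hen1. Their products, apart from that of BoYb, turn precursor transcripts into Piwi-bound piRNAs in the somatic cells of the Drosophila ovary. BoYb is a relative of Yb known from germline cells. All 10 were chosen by name, although with earlier results of these data known, out of 16785 genes in the expression table. The FPKM values of the transcripts of a gene (fragments per kilobase of transcript, scaled to the number of mapped reads) were summed. The 10 genes have 16 transcripts in the table, and all 10 had a mean FPKM of at least 1 over the libraries, a minimum that 7952 genes reached. The study set out to place the chromatin remodeler Mi-2 and the histone deacetylase Rpd3 (HDAC1) in Piwi-dependent silencing. It did so in ovarian somatic cells (OSCs), a cultured line derived from the somatic cells of the ovary.

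The 4 libraries are cells that received siRNA against piwi (named sipiwi), siRNA against Mi-2 (named siMi-2), siRNA against Rpd3 (named siRpd3), and control cells given siRNA against EGFP (named siGFP). All cells were grown at 26 °C and collected 4 days after the knockdown began, and all are therefore transfected cells of the same line. Each condition is 1 library, so that no difference given here has a replicate check and no test across conditions was possible. RNA was measured and protein was not, and in bulk RNA a change in the number of expressing cells and a change in RNA per cell cannot be told apart.

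piRNAs are small RNAs that guide Piwi-clade Argonaute proteins to transposon transcripts. In somatic ovarian cells, long precursors, many of them from the flamenco locus, gather in cytoplasmic granules called Yb bodies beside mitochondria, where helicase and Tudor-domain proteins hand them to an endonuclease on the mitochondrial outer membrane. The resulting fragments are loaded on Piwi, trimmed and methylated at the 3′ end, and the loaded Piwi enters the nucleus, where it directs heterochromatin to transposons.

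From the steps between the FPKM values, 38060116 mapped reads were recovered for sipiwi, 36143523 for siMi-2, 32638866 for the library labelled siRpd3 and 36702889 for siGFP. Ratios to siGFP are on the log2(FPKM + 0.1) scale, on which changes of weakly expressed genes come out too small. A gene counted as higher where its fold was above 2 and as lower where it was below 0.5. The interval beside a ratio is the exact 95% Clopper-Pearson interval computed from the reads. It describes the counting error of a pair of libraries and not the spread of a condition, because each condition has 1 library. PCR reads are not independent molecules, so the interval can be too narrow even as a counting error. The targeted RNA was lower for piwi (log2 ratio -0.92 in sipiwi) and Mi-2 (-2.58 in siMi-2), but not for Rpd3, which was at 104 FPKM in the library labelled siRpd3, against 71.3 in siGFP (log2 ratio 0.54, or -0.15 with the median ratio of all genes subtracted). No direction found in that library can therefore be tied to a lower Rpd3 RNA level. The study also checked its knockdowns by western blot and RT-qPCR, which were not analysed here. All 7 of 7 somatic ovarian markers, of which fs(1)Yb is itself a factor, were at 1 FPKM or more in every library. Their summed level was 240 FPKM in sipiwi, 217 in siMi-2, 326 in the library labelled siRpd3 and 145 in siGFP, or 169, 165, 288 and 92.0 FPKM for the same libraries without fs(1)Yb. The 8 germline markers in the table summed to 10.9 FPKM in sipiwi, 17.3 in siMi-2, 11.3 in the library labelled siRpd3 and 7.95 in siGFP. Of the defining genes, vas was at 2.66 FPKM and aub at 8.06 in siMi-2, against 0.0243 and 0.328 in siGFP, whereas osk was at 0 in both. The marker rhi went the other way, at 0.317 FPKM in siMi-2, against 2.79 in siGFP, and bgcn was at 1.89 in both. The 5 hemocyte markers summed to 10.5 FPKM in sipiwi, 3.73 in siMi-2, 15.0 in the library labelled siRpd3 and 1.43 in siGFP. Of these, Hml was at 0 in 3 libraries and at 0.00521 FPKM in the library labelled siRpd3. However, Pxn was at 9.80 FPKM in sipiwi, against 1.31 in siGFP, and srp was at 10.4 FPKM in the library labelled siRpd3, against 0.113 in siGFP. In every library the neuronal and the muscle markers each summed to less than 5 FPKM. The part of these marker levels in the results was not tested.

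Abundance set the factors far apart in the control. In siGFP, shu (91.7 FPKM), armi (68.8), fs(1)Yb (53.3) and vret (43.9) were the most abundant, above at least 74.0% of the 7952 genes. The mitochondrial factors mino, zuc and Gasz followed at 19.7, 17.0 and 11.9 FPKM. Hen1 was at 7.67 FPKM, and the Yb relatives BoYb and SoYb were lowest at 2.53 and 1.49 FPKM. No neighbours in this order overlapped by their counting intervals in siGFP. The order of the lower genes was less clear elsewhere: Gasz and zuc overlapped in sipiwi, vret and mino as well as SoYb and BoYb in siMi-2, and mino overlapped with both vret and Gasz in the library labelled siRpd3. The first place was held by shu in sipiwi and siGFP and by armi in siMi-2 and the library labelled siRpd3.

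**Figure D1:**
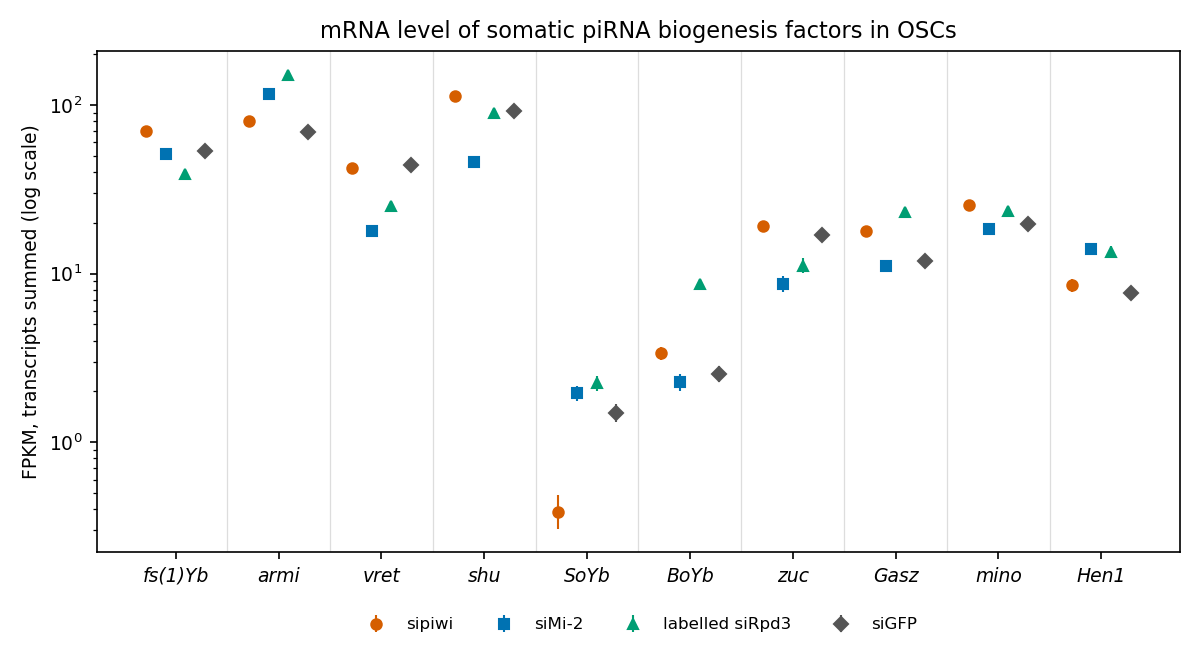
FPKM of the 10 factors (log axis) in sipiwi, siMi-2, the library labelled siRpd3 and siGFP, 1 point per library with no replicates, grouped by role. The levels span from 0.388 FPKM (SoYb in sipiwi) to 151 FPKM (armi in the library labelled siRpd3). The factors vret, shu, zuc, mino, Gasz and BoYb are lowest in siMi-2.

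Across the 10 factors, few ratios to siGFP passed 2-fold. In sipiwi 0 factors were higher and 1 was lower (SoYb), where 11.4% of all genes tested were higher and 2.54% lower. In siMi-2 0 factors were higher and 1 was lower (vret), beside 15.7% higher and 3.43% lower among all genes. Both shu and zuc lay close to the limit there. In the library labelled siRpd3, 2 factors were higher (armi and BoYb) and 0 were lower, beside 40.9% and 7.43% of all genes. The median log2 ratio of the factors was 0.26 (sipiwi), -0.10 (siMi-2) and 0.40 (library labelled siRpd3). That of all genes tested was 0.29 (sipiwi), 0.13 (siMi-2) and 0.69 (library labelled siRpd3). These comparisons share the siGFP library.

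**Figure D2:**
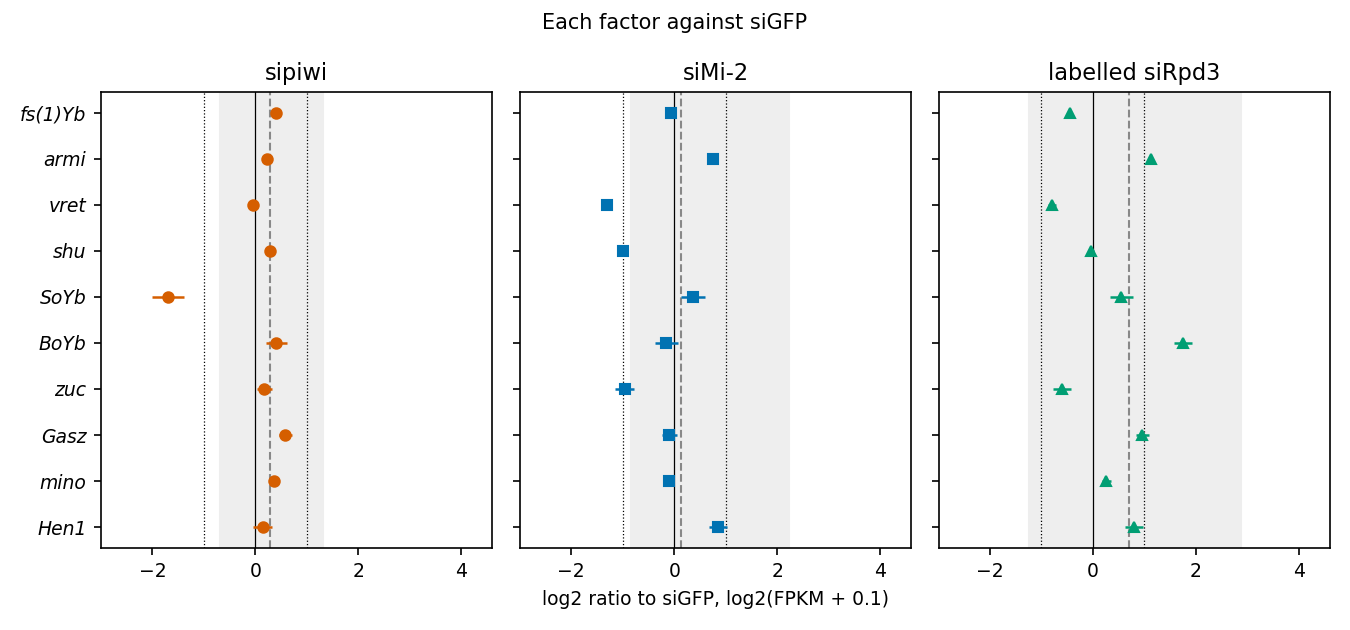
log2 ratio to siGFP of the 10 factors in sipiwi, siMi-2 and the library labelled siRpd3, with exact 95% counting intervals as bars. The grey band spans the 5th to 95th percentile of all 7952 genes and the dashed line marks their median, with dotted lines at the 2-fold limits. SoYb lies at -1.70 in sipiwi, vret at -1.30, shu at -0.996 and zuc at -0.96 in siMi-2, and BoYb at 1.74 and armi at 1.14 in the library labelled siRpd3.

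Of the Yb body proteins, fs(1)Yb encodes the soma-specific Tudor-domain and helicase-like protein around which the granule forms. Its gene lies on chromosome X from 2720468 to 2724158 (dm6, plus strand) and has a single transcript of 3502 nt with 4 exons. It was at 70.2 FPKM in sipiwi, 51.2 in siMi-2, 38.8 in the library labelled siRpd3 and 53.3 in siGFP. The log2 ratios were 0.40 for sipiwi (interval 0.35 to 0.44), -0.06 for siMi-2 (-0.11 to -0.01) and -0.45 for the library labelled siRpd3 (-0.51 to -0.40). None passed 2-fold, and the library labelled siRpd3 was the lowest of the 4.

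The helicase gene armi (Armitage) encodes the RNA helicase that binds precursor RNA in the Yb body and moves with it to mitochondria. It lies on chromosome 3L from 3461317 to 3466314 on the plus strand. Its level was 80.6 FPKM in sipiwi, 116 in siMi-2, 151 in the library labelled siRpd3 and 68.8 in siGFP, from between 10013 and 19584 reads. All 3 knockdown libraries were above siGFP, with log2 ratios of 0.23 for sipiwi, 0.75 for siMi-2 (interval 0.71 to 0.78) and 1.14 for the library labelled siRpd3 (1.10 to 1.17). Only the last of these was past 2-fold, in a library in which 40.9% of all genes were. The 3 transcripts of armi each held between 31.9% and 35.8% of its FPKM in every library, and reads in the exons they share cannot be assigned to a transcript.

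A Tudor-domain partner of Armitage and Yb is encoded by vret (Vreteno). Its gene lies on chromosome 3R from 22742954 to 22745581 on the minus strand and has 1 transcript of 2328 nt with 6 exons. Its RNA was at 42.5 FPKM in sipiwi, 17.8 in siMi-2, 25.2 in the library labelled siRpd3 and 43.9 in siGFP. With 1496 reads in siMi-2 against 3750 in siGFP, the log2 ratio was -1.30 (interval -1.39 to -1.21), and only 1.91% of all genes tested had a ratio at or below it. The ratio in the library labelled siRpd3 was -0.80 (-0.88 to -0.72), short of 2-fold, and that in sipiwi was -0.05 (-0.11 to 0.02). The level was thus nearly the same in sipiwi and siGFP and lower in the other two libraries.

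The co-chaperone gene shu (Shutdown) encodes an FKBP-family protein needed to load piRNAs on Piwi-clade proteins. Its gene lies on chromosome 2R from 23841461 to 23843286 on the minus strand, with 1 transcript of 1694 nt. It was at 112 FPKM in sipiwi, 45.9 in siMi-2, 89.3 in the library labelled siRpd3 and 91.7 in siGFP. The siMi-2 log2 ratio was -0.996 (interval -1.06 to -0.93), a fold of 0.501 that was just outside the 0.5-fold limit, and 3.48% of all genes had a ratio at or below it. In sipiwi and the library labelled siRpd3 the ratios were 0.29 and -0.04.

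The Yb relatives SoYb and BoYb are Tudor-domain proteins known from germline nuage, SoYb also from somatic cells. For SoYb, on chromosome 2L from 9996706 to 10002736, 0.388 FPKM was measured in sipiwi, 1.94 in siMi-2, 2.23 in the library labelled siRpd3 and 1.49 in siGFP, from 72, 343, 355 and 267 reads. The sipiwi ratio was -1.70 on the log2 scale (interval -2.01 to -1.39), with 0.616% of all genes at or below it. The siMi-2 ratio was 0.36, and that of the library labelled siRpd3 was 0.55. Both SoYb transcripts were lower in sipiwi, with log2 ratios of -1.72 and -1.34. The call depends on the pseudocount, since with 1 FPKM in place of 0.1 the ratio was -0.84 and not past 2-fold.

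By contrast, BoYb was highest in the library labelled siRpd3. Its intronless gene on chromosome 3L (22901912 to 22905470, plus strand) gave 3.37 FPKM in sipiwi, 2.26 in siMi-2, 8.69 in the library labelled siRpd3 and 2.53 in siGFP. The log2 ratio there was 1.74 (interval 1.57 to 1.93), from 1010 reads against 330. The ratios in sipiwi and siMi-2 were 0.40 (0.20 to 0.60) and -0.15 (-0.37 to 0.07).

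Of the mitochondrial factors, zuc (Zucchini) encodes the endonuclease of the outer membrane that cuts precursors into phased piRNAs. Its gene is a single exon of 1148 nt on chromosome 2L (11988735 to 11989882, minus strand). It was at 19.2 FPKM in sipiwi, 8.68 in siMi-2, 11.2 in the library labelled siRpd3 and 17.0 in siGFP. Like shu, it was close to but not past the limit in siMi-2, with a log2 ratio of -0.96 (interval -1.15 to -0.78) from 360 reads against 717. The ratio was -0.60 (-0.78 to -0.43) in the library labelled siRpd3 and 0.17 (0.03 to 0.32) in sipiwi.

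The outer-membrane scaffold that recruits Armitage to mitochondria is encoded by Gasz, on chromosome 2R from 8167948 to 8170089. Gasz was at 17.8 FPKM in sipiwi, 11.1 in siMi-2, 23.3 in the library labelled siRpd3 and 11.9 in siGFP. Its ratios of 0.58 (sipiwi), -0.10 (siMi-2) and 0.96 (library labelled siRpd3) all stayed within 2-fold. A mitochondrial glycerol-3-phosphate acyltransferase, an enzyme of lipid synthesis that is also needed for piRNA production, is encoded by mino (Minotaur) on chromosome 3R from 27925191 to 27933077. It was the factor that varied least, at 25.5 FPKM in sipiwi, 18.4 in siMi-2, 23.5 in the library labelled siRpd3 and 19.7 in siGFP, so that its highest level was 1.39 times its lowest. Of its 4 transcripts, the one of 2903 nt held 24.7% of the FPKM in siMi-2, against 31.1% in siGFP. As for armi, reads in shared exons cannot be assigned to a transcript.

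The 3′-end methyltransferase Hen1, which adds a 2′-O-methyl group to mature piRNAs, is encoded on chromosome 2R from 12145710 to 12152752. Hen1 was at 8.50 FPKM in sipiwi, 13.9 in siMi-2, 13.4 in the library labelled siRpd3 and 7.67 in siGFP. By FPKM, the levels fell into a low pair, sipiwi and siGFP, and a high pair, siMi-2 and the library labelled siRpd3. On the log2 scale the ratio was 0.15 for sipiwi (interval -0.04 to 0.33), 0.85 for siMi-2 (0.69 to 1.02) and 0.80 for the library labelled siRpd3 (0.63 to 0.97), and none passed 2-fold. The last of these was near the median of all genes in that library, and was 0.11 with that median subtracted, where the siMi-2 ratio was 0.73.

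The proportions of armi, vret, fs(1)Yb and shu also differed between the libraries. These genes were picked by their ratios to siGFP, so the proportions restate those ratios. In both siMi-2 and the library labelled siRpd3, armi was above siGFP and the others were below it. For shu in the latter the log2 ratio was only -0.04, and for fs(1)Yb in siMi-2 it was only -0.06. Summed FPKM over the 10 factors was 380 in sipiwi, 287 in siMi-2, 387 in the library labelled siRpd3 and 318 in siGFP. The level of armi was 1.90 times that of vret in sipiwi, 6.51 times in siMi-2, 6.01 times in the library labelled siRpd3 and 1.57 times in siGFP. Against fs(1)Yb, armi was 1.15 times as high in sipiwi, 2.26 times in siMi-2, 3.90 times in the library labelled siRpd3 and 1.29 times in siGFP. Accordingly armi made up 21.2% of the sum in sipiwi, 40.3% in siMi-2, 39.1% in the library labelled siRpd3 and 21.6% in siGFP. The share of shu was 29.5% in sipiwi, 16.0% in siMi-2, 23.1% in the library labelled siRpd3 and 28.8% in siGFP.

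The knockdown libraries were also compared with each other, without siGFP, in 3 comparisons that share libraries pairwise. In siMi-2 against sipiwi, 1 factor was higher, SoYb (log2 ratio 2.07, interval 1.72 to 2.44), beside 12.0% of all genes tested. A further 3 were lower, shu (-1.29), vret (-1.25) and zuc (-1.14), beside 10.5% of all genes. The median over the factors was -0.51, and over all genes -0.18. In the library labelled siRpd3 against sipiwi, SoYb (2.25) and BoYb (1.34) were higher, 2 factors beside 26.8% of all genes, and 0 were lower, beside 6.28%. The medians there were 0.14 over the factors and 0.30 over all genes. The armi ratio of 0.91 was not past 2-fold there, and SoYb stood out in both comparisons, which share the sipiwi library. In the library labelled siRpd3 against siMi-2, BoYb (1.90) and Gasz (1.06) were higher, 2 factors beside 34.8% of all genes, and 0 were lower, beside 10.8%.

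Ratios in the library labelled siRpd3 followed transcript length across the whole table, and this bears on every factor. The median log2 ratio of all genes there was -0.16 below 1000 nt and 2.01 from 5000 nt. For the same length classes it was 0.06 and 0.69 for sipiwi, and 0.13 and 0.38 for siMi-2. The 85 ribosomal protein genes, which are short, took 13.7% of the mapped reads in the library labelled siRpd3 and 30.8% in siGFP. Each factor was therefore also set against the median of the 200 genes nearest to it in length. Relative to these, 8 of 10 factors had a lower ratio in sipiwi, 8 did in siMi-2, and 7 did in the library labelled siRpd3. Of all genes, 49.9% (sipiwi), 50.0% (siMi-2) and 49.7% (library labelled siRpd3) lay below their own length-matched median. Several of the sipiwi differences were near 0, among them shu (-0.03), Hen1 (-0.06) and mino (-0.10).

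On this scale siMi-2 had 2 factors more than 2-fold lower, vret (-1.33) and zuc (-1.04), where 4.74% of all genes were, and shu was at -0.94. The library labelled siRpd3 had 0 factors higher, where 17.9% of all genes were, and 4 lower, where 15.8% were: fs(1)Yb (-1.96), vret (-1.71), SoYb (-1.20) and mino (-1.15). The sign of armi in that library turned, its ratio of 1.14 becoming -0.38, and BoYb was left at 0.24. With the median ratio of all genes subtracted instead, siMi-2 had 3 factors lower, vret (-1.42), shu (-1.12) and zuc (-1.09), beside 4.63% of all genes. Scaled in that way, the library labelled siRpd3 had 1 higher, BoYb (1.05), beside 23.1%, and 3 lower, vret (-1.49), zuc (-1.30) and fs(1)Yb (-1.15), beside 21.7%. What made the ratios follow length was not tested.

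**Figure D3:**
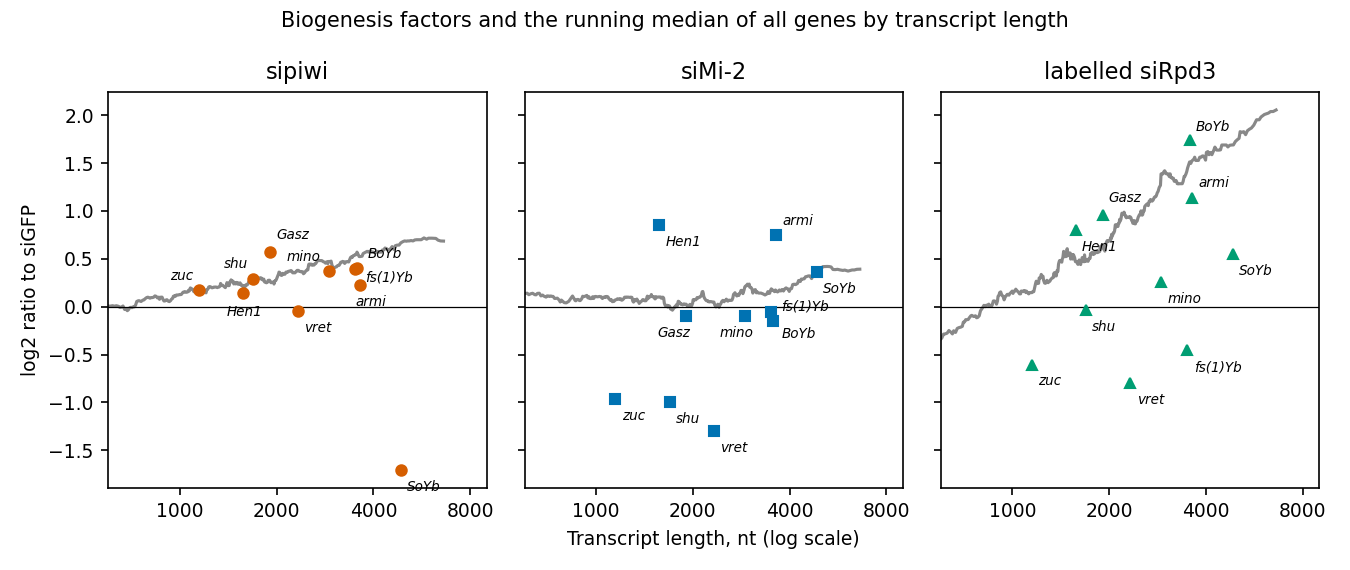
log2 ratio to siGFP of the 10 factors against transcript length in nt (log axis), with the running median of all genes tested as a grey line, for sipiwi, siMi-2 and the library labelled siRpd3. The line climbs with length in the library labelled siRpd3, where fs(1)Yb and vret lie furthest below it (-1.96 and -1.71) and armi lies slightly below it (-0.38).

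Several factors share exonic sequence with other annotated genes, and whether the libraries kept the strand is not given in the sources used here. The overlaps were short for vret (128 bases with CG6985 on the opposite strand, 5.50% of its exonic bases), zuc (67 bases with CG34163, also opposite, 5.84%) and SoYb (247 bases with CG31875 on the same strand, 5.03%). CG31875 was at 5.31 FPKM in sipiwi, 3.55 in siMi-2, 8.73 in the library labelled siRpd3 and 2.29 in siGFP. The low SoYb value in sipiwi thus stood beside a CG31875 value above that of siGFP. For armi, 4145 of the 4162 exonic bases are also annotated to CG46463 on the same strand, a gene not analysed here, so that the armi values cover both. For shu, 44 bases lie opposite CG46398. For mino, 37.0% of the exonic bases lie opposite the antisense gene asRNA:CR46452, whose level was not analysed here, and reads of the pair could not be told apart without strand. Opposite mino there are also lncRNA:CR45566 over 118 bases and NSD over 96 bases. The first of these was at 15.6 FPKM in siMi-2, against 1.27 in siGFP, and its part in the mino values was not tested.

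Other steps of the pathway were described by lists of their genes, with the counts set beside the percentages of all genes given above for each library. The list ratios were not adjusted for transcript length. Of 13 genes of nuclear silencing other than piwi, 0 were more than 2-fold higher or lower in sipiwi. In siMi-2 2 were higher, smt3 (the SUMO gene, listed as Sumo in RefSeq, log2 ratio 1.11) and ctp (a dynein light chain found in the Panoramix complex, 1.25), and 0 were lower. In the library labelled siRpd3 6 were higher and 0 lower, among them Su(var)2-10, a SUMO ligase (2.36), CoRest, a corepressor (1.97), and Panx, the Panoramix adaptor downstream of Piwi (1.84). The list medians were 0.38 (sipiwi), 0.16 (siMi-2) and 0.94 (library labelled siRpd3), beside 0.29, 0.13 and 0.69 for all genes.

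Upstream of the biogenesis factors, tj encodes the transcription factor Traffic jam, and Hel25E, sbr and Nxt1 act in export of RNA, Nxt1 being in the nuclear silencing list as well. None of the 4 genes of this list passed 2-fold in sipiwi or siMi-2, and 2 were higher and 0 lower in the library labelled siRpd3 (sbr at 1.33 and tj at 1.08). Of 7 genes of trimming, mitochondrial partners and Piwi loading, 0 passed 2-fold in sipiwi or siMi-2, and 1 was higher in the library labelled siRpd3, the chaperone gene Hsp83 (1.83). The lowest of this list in siMi-2 was the trimming exonuclease gene Nbr, at 14.0 FPKM there, against 21.2 in siGFP (log2 ratio -0.59).

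The germline nuage and cluster list had 10 genes that reached the minimum. In sipiwi squ (log2 ratio 1.64, at 41.6 FPKM there) and spn-E (1.16, at 24.0 FPKM) were higher and tud (-1.49) and del (-1.41) lower. In siMi-2 aub, which encodes a germline Piwi-clade protein, was at 8.06 FPKM, against 0.328 in siGFP (log2 ratio 4.25), cuff (1.45) and moon (1.18) were also higher, and rhi (-2.79) was lower. Without siMi-2, aub averaged less than 1 FPKM, so that it reached the minimum only through the library in which it was high, and it gives no support to the count. In the library labelled siRpd3 7 of the 10 were higher and 0 lower, with a median of 1.89 over the list. There cuff reached the minimum only through that library, and without it 6 of 9 were higher and 0 lower, with a median of 1.58. These values were not set against transcript length, which the ratios in that library followed. The list holds long transcripts (tud 8830, spn-E 4678 and tapas 3753 nt) and short ones (moon 811, cuff 1295 and squ 1372 nt). The median log2 ratio of all genes there was 0.39 from 1000 to 2000 nt and 1.64 from 4000 to 5000 nt. The part of the germline marker levels given above, which share aub and rhi with this list, was not tested. Of 7 acyltransferase and related glycerolipid genes, which act in the same lipid pathway as mino, Agpat2 was at 1.19 FPKM in sipiwi, 24.0 in siMi-2, 5.42 in the library labelled siRpd3 and 9.76 in siGFP. It was the only one of the 7 lower in sipiwi, whereas in siMi-2 it was higher together with Agpat1 (1.29 and 1.02), and in the library labelled siRpd3 Agpat3 (1.19) and mdy (1.10) were higher.

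**Figure D4:**
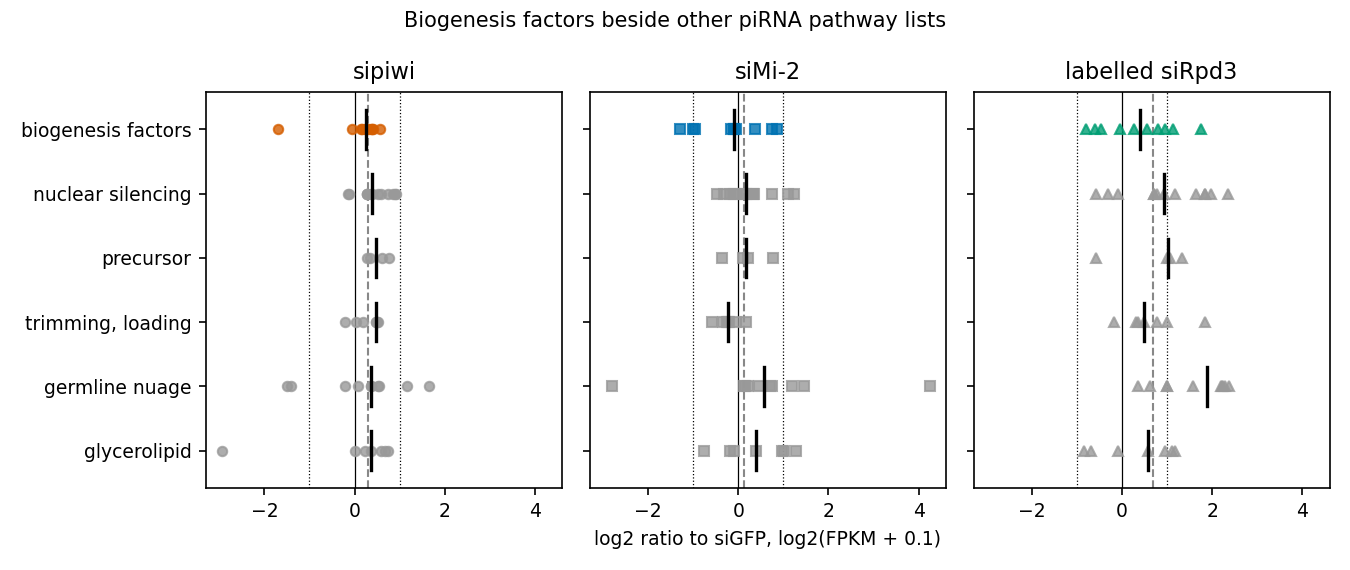
log2 ratio to siGFP of each gene with a mean FPKM of at least 1 in the biogenesis factors and in the lists of other pathway steps, for sipiwi, siMi-2 and the library labelled siRpd3, with the median of each list as a bar that of all genes tested as a dashed line and the 2-fold limits as dotted lines. The medians of the 10 factors are 0.26 (sipiwi), -0.10 (siMi-2) and 0.40 (library labelled siRpd3), beside 0.29, 0.13 and 0.69 for all genes. The nuage list reaches 1.89 in the library labelled siRpd3, or 1.58 without cuff, which reached the minimum only through that library. No list is adjusted for transcript length.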

How the data were processed

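Poly(A) RNA of OSCs was sequenced in 4 libraries, 1 per condition, assigned by their labels. Per the submitters' notes and the study's methods, reads were mapped with Bowtie2 2.2.4 at default parameters to dm6 and to gene and transposon transcripts, and coverage was scaled to library size with BEDTools. The authors deposited FPKM values for 35327 transcripts, in which 98.9% of the rows matched RefSeq accessions. The deposited transposon table was not used here.

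Transcripts were summed per gene, and log2(FPKM + 0.1) ratios were taken for genes averaging 1 FPKM or more. FPKM values are not counts, so no count model was run. Library sizes and transcript lengths were recovered from the FPKM steps, and over intronless genes with 1 transcript between 98.0% and 98.1% of values came out as whole reads. Where all reads of a transcript shared a factor, its length was set to the annotated exonic length. The recovery was tested on simulated data. Gene starts and ends are those of the RefSeq annotation of Release 6 (dm6). Strands, exon numbers and exonic overlaps are from the Ensembl annotation of that release. No sequences were used here.

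The factors and gene lists were chosen with earlier results of these data known. All 10 factors are named, and of the lists the genes past 2-fold or the highest and lowest, besides the siRNA targets; of the 6 and 7 genes higher in the library labelled siRpd3 only examples or counts are given. CG31875, the neighbouring genes, the single markers named and the comparison of the library labelled siRpd3 with siMi-2 were chosen with their values known. Alternative settings comprised a pseudocount of 0.01 or 1 FPKM, no minimum or a minimum of 5 FPKM, a limit of 1.5-fold or 4-fold, scaling to the median gene, leaving out ribosomal protein genes from the library size, ratios relative to 200 genes of similar length and the top transcript in place of the sum. Versions were Python 3.11.15, scipy 1.17.1, pandas 2.3.3, matplotlib 3.10.9 and numpy 2.4.6.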

Additional observations from a re-analysis of the deposited data

How the results depend on the processing

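With 1 library per condition, no library could be left out, and no paired analysis was possible because each condition has a single library. Of 10 factors, 9 kept the sign of their ratio in siMi-2 under the alternatives run, 7 in the library labelled siRpd3 and 3 in sipiwi. For armi in the library labelled siRpd3, the ratio to genes of similar length reversed the sign to -0.38. The number of factors lower in sipiwi was 0 with a pseudocount of 1 FPKM and at 4-fold. It was also 0 with the top transcript of each gene, because SoYb (-1.34 for that transcript) then averaged less than 1 FPKM and was not counted. The share of all genes lower in sipiwi was 3.83% without a minimum, beside 2.54%. Scaled to the median gene, the medians in sipiwi, siMi-2 and the library labelled siRpd3 were -0.028, -0.22 and -0.29, with 3 factors lower in siMi-2, and 1 higher and 3 lower in the library labelled siRpd3. Set against genes of similar length, the medians were -0.11, -0.31 and -0.67, with 2 factors lower in siMi-2, and 0 higher and 4 lower in the library labelled siRpd3. With ribosomal protein genes left out of the library size, the medians were 0.11 in sipiwi and 0.10 in the library labelled siRpd3, with 2 factors lower in siMi-2, and 1 higher and 1 lower in the library labelled siRpd3. With the top transcript, and so without SoYb, the median in the library labelled siRpd3 was 0.24. At 1.5-fold, siMi-2 had 2 factors higher and 3 lower, and the library labelled siRpd3 4 higher and 2 lower. At 4-fold, siMi-2 had 0 lower and the library labelled siRpd3 0 higher. No share of all genes is given for the 1.5-fold and 4-fold limits or the pseudocount of 1 FPKM. Nor is one given for the top transcript or the library size without ribosomal protein genes. The counts of factors under these settings therefore have no background beside them. The cause of the shifts between settings was not tested beyond what each scaling does by construction. With lists limited to genes that reached 1 FPKM without the knockdown library in question, an alternative chosen after seeing the data, the nuage list had 2 genes higher in siMi-2, beside 3, and 6 in the library labelled siRpd3, beside 7, and no other list count changed. The depth limits SoYb most, with 72 reads in sipiwi.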

Other observations

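The nearest gene on each side of the 10 factors with a mean FPKM of at least 1 was listed, 19 genes in all. Genes below that minimum were passed over, so that not all 19 are adjacent to a factor. The furthest were pippin, 23133 bp from shu, and Ssl1, 20948 bp from BoYb. In siMi-2, in which vret, shu and zuc were low, 3 of the 19 neighbours were more than 2-fold higher and 0 lower. The share higher was close to the 15.7% of all genes higher there, and 3.43% of all genes were lower. In sipiwi 3 were higher and 0 lower, beside 11.4% and 2.54% of all genes. In the library labelled siRpd3 5 were higher and 2 lower, beside 40.9% and 7.43% of all genes. The 3 neighbours higher in siMi-2 were CycJ, fs(1)Ya and lncRNA:CR45566. CycJ, beside armi, was at 2.79 FPKM in siMi-2, against 0.555 in siGFP (log2 ratio 2.14). For fs(1)Ya, beside fs(1)Yb, the values were 13.5 and 4.16 FPKM (1.67), and for lncRNA:CR45566, which overlaps mino, 15.6 and 1.27 FPKM (3.52). CycJ was at 1.34 FPKM in sipiwi and 0.541 in the library labelled siRpd3. Without siMi-2 it averaged less than 1 FPKM, so that it reached the minimum only through the library in which it was high. It gives no support to the count of 3 neighbours or to their share. The neighbours of vret were within 2-fold in siMi-2, with log2 ratios of -0.24 for CG6985 and -0.0036 for HP1c, a gene of the heterochromatin protein family. Those of zuc were at -0.22 (CG34163) and -0.26 (dgt2), and those of shu at 0.39 (pippin) and 0.07 (Snap29). The median over the 19 neighbours was 0.17 (sipiwi), -0.10 (siMi-2) and -0.45 (library labelled siRpd3).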
